A study of Mus musculus with 18 samples.

Results

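The comparison described here is the genotype by diet interaction in mouse beta cells: the difference between LIRKO and control mice on HFD minus the same difference on chow. It used all 18 RNA-seq libraries of the series, with 6 in the Ctrl chow group, 4 in LIRKO chow, 5 in Ctrl HFD and 3 in LIRKO HFD. LIRKO mice lack the insulin receptor in the liver only, and HFD is read here as high-fat diet. Islets had been cultured overnight in medium with 7 mM glucose before beta cells were sorted by light scatter and endogenous fluorescence. The labels give no age, sex, strain, length of diet or Cre driver, and do not say which libraries came from separate animals, so each p-value reflects variation among libraries that could be partly technical.

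Mice without the hepatic insulin receptor are known for insulin resistance of the liver, high circulating insulin and enlarged islets. Beta cells answer a rising demand for insulin by dividing, by expanding the endoplasmic reticulum (ER) and by changing how much insulin they make, and a high-fat diet raises that demand as well. An interaction asks whether the genotype difference depends on the diet: a gene can keep its difference, lose it, reverse it, or gain one on HFD.

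Total counts per library ran from 19490235 to 51714775. The 4 LIRKO chow libraries formed 2 close pairs: the median absolute deviation of the log2 ratio between libraries was 0.0622 for replicates 1 and 2 and 0.0720 for replicates 3 and 4, against 0.119 to 0.176 for the other pairs of that group. These pairs differed by more than counting noise (chi-square per degree of freedom 6.58 and 8.84), which does not tell repeat libraries of 1 animal from libraries of separate animals. They entered the fit as 4 libraries because the labels list 4 samples, and an alternative with each pair summed is given beside the main counts. Ctrl HFD replicates 1 and 2 stood apart from replicates 3, 4 and 5 (0.430 to 0.565 across, 0.169 to 0.212 within). The main counts are also given without these 2 libraries. Insr, the gene deleted in the liver, was not the target in these cells and measured 45.4 to 61.8 CPM (reads scaled by library size to a common total) in Ctrl chow. The ranges were 55.0 to 60.4 for LIRKO chow, 33.4 to 63.5 for Ctrl HFD and 52.4 to 54.5 for LIRKO HFD. The beta cell markers took a summed 99830 to 234136 CPM in every library. Markers of other islet and pancreatic cells were present too: delta cell markers summed to 598 to 1488 CPM and acinar markers to 13.5 to 745 CPM over the 18 libraries. The delta cell marker Hhex and the acinar marker Amy2a5 were listed at 0, as were a few genes that most cells use, so a listed 0 does not measure absence.

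A single gene, Etv5, passed the interaction test among 19284 genes (0.00519%; edgeR quasi-likelihood test, Benjamini-Hochberg adjusted p under 0.05). At an unadjusted p under 0.05 there were 1065 genes (5.52%), 465 higher and 600 lower. The genotype difference itself passed for 993 genes on chow (5.15%; 569 higher, 2.95%, and 424 lower, 2.2%, in LIRKO) and for 98 genes on HFD (0.508%; 61 higher, 0.316%, and 37 lower, 0.192%). HFD against chow passed for 1914 genes in Ctrl (9.93%) and 392 in LIRKO (2.03%), and these counts share libraries with the others. Their order depended on the libraries and the tool. Without Ctrl HFD replicates 1 and 2 they were 34 in Ctrl and 1191 in LIRKO, and with limma voom 73 and 6104. With DESeq2 they were 3965 and 1089, and with the LIRKO chow pairs summed 114 and 7. Of the genotype calls, 63 genes passed on both diets with the same sign, which is 6.34% of the chow calls and 64.3% of the HFD calls. No gene passed on both diets with opposite signs (0 by edgeR and by DESeq2, 7 by limma voom with quality weights), and no gene that passed on HFD also passed the interaction in the same direction (6 by DESeq2, 17 by voom). DESeq2 called 47 genes in the interaction (0.237%) and voom 43 (0.223%), of which 26 were called by both. Among the 26 were Etv5, Gc, Mki67, Cenpe, Star, Cntfr, Zfp703, Cys1, Prkg2, Bmpr1b, Id3, Astn1 and Cadm3. Of these, edgeR called Etv5 alone, and the adjusted p-values given for single genes below are from edgeR. Top2a, Inhba and Igf1r were called by DESeq2 and not by voom. With the LIRKO chow pairs summed, the interaction called 0 genes and the chow difference 193. Without Ctrl HFD replicates 1 and 2, the interaction called 8 genes: Etv5, Stk35, Star, Gpt2, Fam167a and Krt80 lower, and Cntfr and Prkg2 higher.

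A missed threshold on HFD was not the same as an absent difference. Of the 569 genes higher in LIRKO on chow, 502 (88.2%) were also above 0 on HFD, against 45.4% of all genes tested, and 229 were so at an unadjusted p under 0.05 (3.56% of all genes). Their median log2 difference was 1.28 on chow and 0.48 on HFD. Of the 424 genes lower in LIRKO on chow, 381 (89.9%) were below 0 on HFD, against 54.6% of all genes, with medians of −0.88 and −0.36, and 170 at an unadjusted p under 0.05 (4.26% of all genes). These genes were chosen on the chow libraries, so a smaller value on HFD is partly fixed by that choice and is a description only. Opposite signs at an unadjusted p under 0.05 on HFD were found for 6 genes. Necab2, Igsf11, Star, Top2a and Jade1 were higher on chow (5 of 569, 0.879%, against 4.26% of all genes lower on HFD). Prkg2 was lower on chow (1 of 424, 0.236%, against 3.56% of all genes higher on HFD). None passed on HFD by edgeR, while voom called Igsf11, Star and Prkg2 on both diets with opposite signs.

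**Figure D1:**
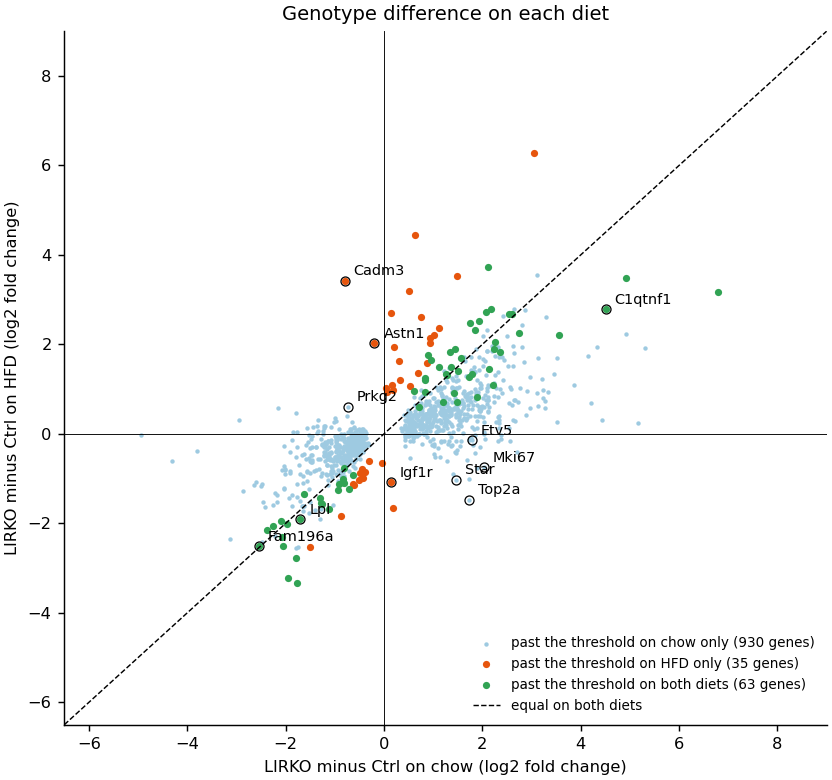
Genotype difference (LIRKO minus Ctrl, log2 fold change) on chow (x axis) and on HFD (y axis) for each gene past the threshold on at least 1 diet; the dashed line marks equal differences. The 930 genes called on chow only mostly have the same sign on HFD, the 63 called on both diets lie on either side of the line, and Etv5 lies near 0 on HFD.

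Etv5 encodes an ETS-family transcription factor whose transcription is raised by receptor tyrosine kinase and ERK signalling (ENSMUSG00000013089, chromosome 16, 22381309 to 22439719, minus strand, GRCm38). It measured 4.35 to 8.01 CPM in Ctrl chow (median 6.45), 19.3, 20.8, 24.1 and 24.0 in LIRKO chow, 4.67, 3.82, 5.33, 4.91 and 5.28 in Ctrl HFD, and 4.01, 4.60 and 4.44 in LIRKO HFD. The LIRKO chow libraries alone were high, and the HFD groups overlapped. The log2 difference was 1.78 (SE 0.15, adjusted p = 5.87e-06) on chow and −0.15 (95% interval −0.53 to 0.23, adjusted p = 0.90) on HFD, and the interaction was −1.93 (SE 0.24, 95% interval −2.44 to −1.42, adjusted p = 0.0051). The call was lost with the LIRKO chow pairs summed (adjusted p = 0.113) and without LIRKO HFD replicate 1 (adjusted p = 0.057).

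Etv5 belongs to a list of 18 ERK feedback genes, all tested, of which 7 were higher in LIRKO on chow (2.95% of all genes) and 0 on HFD (0.316%). With the LIRKO chow pairs summed, 3 were higher on chow, without Ctrl HFD replicates 1 and 2 there were 10, and voom called 9 on chow and 3 on HFD. The list's median difference was 0.68 on chow and 0.21 on HFD, against −0.02 and −0.04 for all genes. On HFD, 15 of the 18 were above 0, against 45.4% of all genes. The summed level of the list was 415 to 543 CPM in Ctrl chow and 661 to 694 in LIRKO chow. It was 486 to 666 CPM in Ctrl HFD and 564 to 718 in LIRKO HFD, so the sum was not lower in LIRKO HFD as a group. Spry4, an inhibitor of receptor tyrosine kinase signalling, had an interaction of −1.20 (SE 0.32, adjusted p = 0.45), with 5.01 to 8.67 CPM in LIRKO chow and 1.96 to 4.25 CPM in the other groups. Etv4, a close relative of Etv5, was at 1.04 CPM or less in every library (interaction −2.08, adjusted p = 0.67). In the whole list, 5 genes had an interaction below 0 at an unadjusted p under 0.05 and 0 had one above 0, against 3.11% and 2.41% of all genes.

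Genes of the G2 and M phases of the cell cycle, which drive chromosome condensation, spindle assembly and division, had the lowest median interaction of the 21 process lists. Of 38 genes, 37 were tested, and 14 were higher in LIRKO on chow (2.95% of all genes), 0 lower, and 0 in either direction on HFD (0.508%). The chow count was 1 with the LIRKO chow pairs summed, 3 to 6 without any 1 LIRKO chow library, 6 without Ctrl chow replicate 1 or 3, 7 without Ctrl chow replicate 6, 9 without Ctrl chow replicate 4, 21 without Ctrl HFD replicate 4 and 22 without Ctrl HFD replicates 1 and 2. DESeq2 called 23 on chow and voom 32. The median difference was 1.26 on chow and −0.35 on HFD. The interaction was below 0 in 35 of 37 (52.5% of all genes), and 26 had an unadjusted p under 0.05 (3.11% of all genes); 0 passed adjustment by edgeR, 4 by DESeq2 (0.167% of all genes were lower) and 2 by voom (0.13%). The summed level of the list was 47.6 to 79.1 CPM in Ctrl chow, 111 to 128 for LIRKO chow, 50.8 to 104 for Ctrl HFD and 52.3 to 54.5 for LIRKO HFD. In bulk libraries, fewer cells in division and less RNA per dividing cell cannot be told apart.

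The proliferation marker Mki67 measured 2.05 to 6.04 CPM in Ctrl chow (median 2.98), 17.9, 16.9, 12.8 and 12.1 in LIRKO chow, 3.77, 3.12, 2.96, 9.79 and 3.65 in Ctrl HFD, and 2.90, 2.55 and 2.88 in LIRKO HFD. Every LIRKO chow library was above every other library. Its log2 difference was 2.03 on chow (SE 0.34, adjusted p = 0.0018) and −0.75 on HFD (SE 0.41, adjusted p = 0.70), with an interaction of −2.77 (SE 0.55, adjusted p = 0.14). Top2a, the topoisomerase that untangles sister chromatids, had an interaction of −3.20 (SE 0.76, adjusted p = 0.37), and Cenpe, a kinetochore motor, −1.88 (SE 0.39, adjusted p = 0.17). Ctrl HFD replicate 4 was the highest of its group for Mki67 and Top2a (9.79 and 9.04 CPM); without it the list's median on HFD was −0.02 and its median interaction −1.17.

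Promoters of such genes are known to carry a cell-cycle homology region and CCAAT boxes. The letters TTTGAA (or TTCAAA on the other strand) were found in 25 of the 32 list members with a RefSeq promoter of 300 bases, 250 before and 50 after the start, and in 17.9% of all 32851 promoters. In the 250 bases before the start alone, the count was 11 of 32, against 5252 of 32851 promoters. CCAAT (or ATTGG) was found in 25 of 32 in the 300 bases and in 37.4% of all promoters, and in 19 of 26 S phase genes, so it was about as frequent in that list. A match is a description of the letters only. The 250 bases before the RefSeq start of 2 genes with large interactions, Mki67 (chr7:135716380-135716629, minus strand) and Top2a (chr11:99024190-99024439, minus strand; both GRCm38.p6), are shown 5′ to 3′ with both motifs in capitals; no 2 matches overlapped.
Mki67: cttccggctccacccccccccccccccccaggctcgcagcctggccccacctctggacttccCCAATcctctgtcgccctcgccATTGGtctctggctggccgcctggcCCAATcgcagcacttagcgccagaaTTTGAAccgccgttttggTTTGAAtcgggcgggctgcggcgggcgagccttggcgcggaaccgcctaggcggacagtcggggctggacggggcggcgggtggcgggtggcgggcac
Top2a: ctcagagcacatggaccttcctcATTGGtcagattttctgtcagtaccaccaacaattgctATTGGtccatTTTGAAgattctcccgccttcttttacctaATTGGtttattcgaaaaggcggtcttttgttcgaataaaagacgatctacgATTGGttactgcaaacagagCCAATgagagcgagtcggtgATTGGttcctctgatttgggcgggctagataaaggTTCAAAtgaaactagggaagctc

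**Figure D2:**
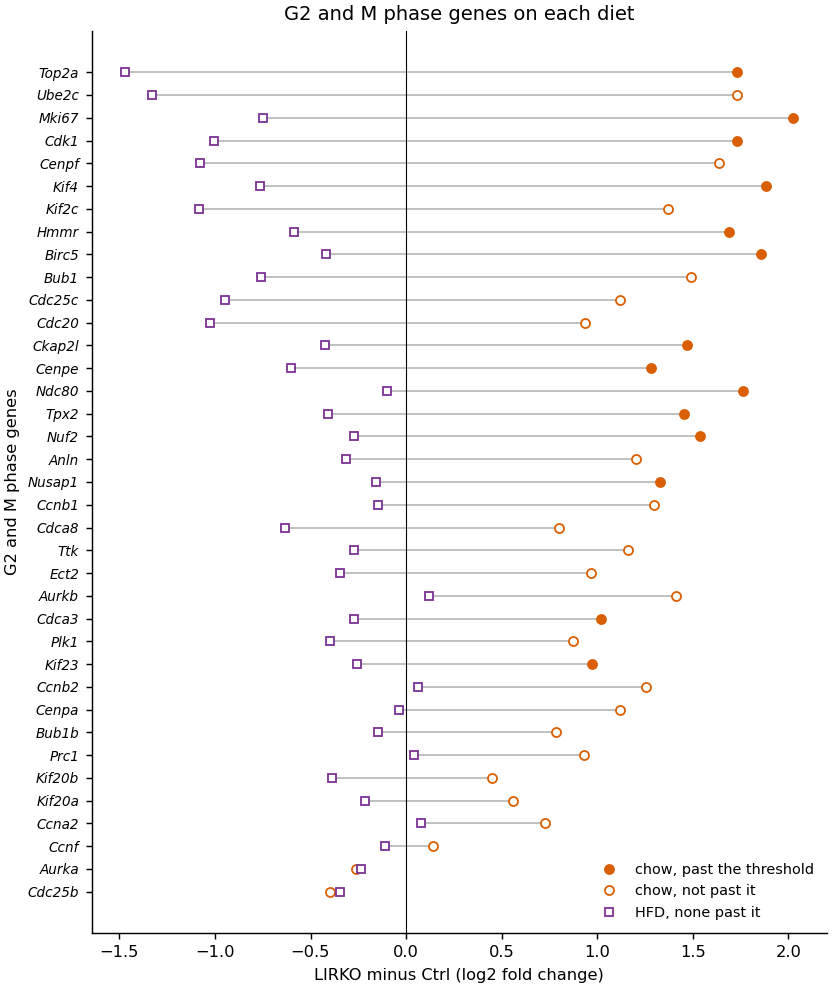
LIRKO minus Ctrl (log2 fold change, x axis) for the 37 tested G2 and M phase genes, on chow (circles, filled where past the threshold) and on HFD (squares), ordered by interaction. Chow values reach 2.03 for Mki67, and most HFD values lie below 0.

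Some other genes higher in LIRKO on chow had smaller differences on HFD. Star, which moves cholesterol into mitochondria, was at 20.9 to 78.0 CPM in Ctrl chow (median 45.9), 142, 146, 117 and 115 in LIRKO chow, 16.5, 14.8, 42.6, 32.2 and 39.1 in Ctrl HFD, and 14.3, 13.7 and 15.0 in LIRKO HFD. Its interaction was −2.50 (SE 0.52, adjusted p = 0.17). Gc, the vitamin D binding protein, passed on both diets, with a difference of 1.90 on chow and 0.81 on HFD (interaction −1.08, SE 0.19, adjusted p = 0.13). Gc is on the alpha cell marker list. Of the 13 tested genes of that list, 3 were higher (2.95% of all genes) and 1 lower (2.2%) on chow. The part of alpha cells in the Gc differences was not tested. Inhba, a subunit of activin, differed by 2.28 on chow and 0.27 on HFD, and Pappa2, which cleaves IGF-binding proteins, by 2.34 and 0.39; their interactions were −2.01 (adjusted p = 0.31) and −1.95 (adjusted p = 0.45). Among 35 ER chaperone and folding genes, 6 were higher on chow (2.95% of all genes) and 0 on HFD (0.316%), with medians of 0.33 and 0.20. The chow count was 2 with the pairs summed, 3 without LIRKO chow replicate 3 and 11 without Ctrl HFD replicates 1 and 2, where the HFD median was 0.09. Voom called 15 on chow and 4 on HFD. Derl3, part of ER-associated degradation, differed by 3.11 on chow (adjusted p = 0.00019) and 0.92 on HFD (adjusted p = 0.63). Of 32 ATF4 targets, 6 were higher on chow (2.95% of all genes) and 1 on HFD (0.316%), against 1 and 0 with the pairs summed and 2 on chow without LIRKO chow replicate 3; the HFD call was lost without Ctrl HFD replicate 1, 3 or 5 or LIRKO HFD replicate 2 or 3. Nupr1 and Trib3, stress-induced regulators on that list, were not among these: their differences were 0.22 and 0.09 on chow and −1.14 and −0.56 on HFD. None passed in the main fit, and the HFD difference of each passed in 3 of 28 alternatives. DESeq2 and voom each called 2 ATF4 targets lower on HFD.

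Some genes lower in LIRKO on chow had smaller differences, or differences above 0, on HFD. Most genes named here and in the paragraph on higher genes were picked for a small interaction p. Their smaller or turned differences on HFD are partly fixed by that choice and are a description only. Cntfr, a receptor subunit for ciliary neurotrophic factor, was at 77.9 to 110 CPM in Ctrl chow (median 83.5), 49.8, 52.7, 41.7 and 42.4 in LIRKO chow, 44.4, 63.9, 53.5, 47.6 and 57.9 in Ctrl HFD, and 61.1, 57.3 and 56.0 in LIRKO HFD. The chow groups did not overlap and the HFD groups did, and the interaction was 1.02 (SE 0.19, adjusted p = 0.13). Zfp703, a transcriptional repressor, differed by −1.07 on chow (adjusted p = 0.00078) and 0.15 on HFD, and Cys1, a ciliary protein, by −1.56 and 0.14. Prkg2, a cGMP-dependent kinase, was at 5.01 to 5.52 CPM in LIRKO chow and reached 19.5 CPM in LIRKO HFD, with differences of −0.74 on chow (adjusted p = 0.017) and 0.61 on HFD (adjusted p = 0.22). Bmpr1b and Id3, a receptor and a target of BMP signalling, had interactions of 2.73 (adjusted p = 0.40) and 1.74 (adjusted p = 0.40). Pdx1, a master regulator of beta cells, was lower in LIRKO on chow (−0.90, adjusted p = 0.0045) and measured −0.41 on HFD (adjusted p = 0.64).

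**Figure D3:**
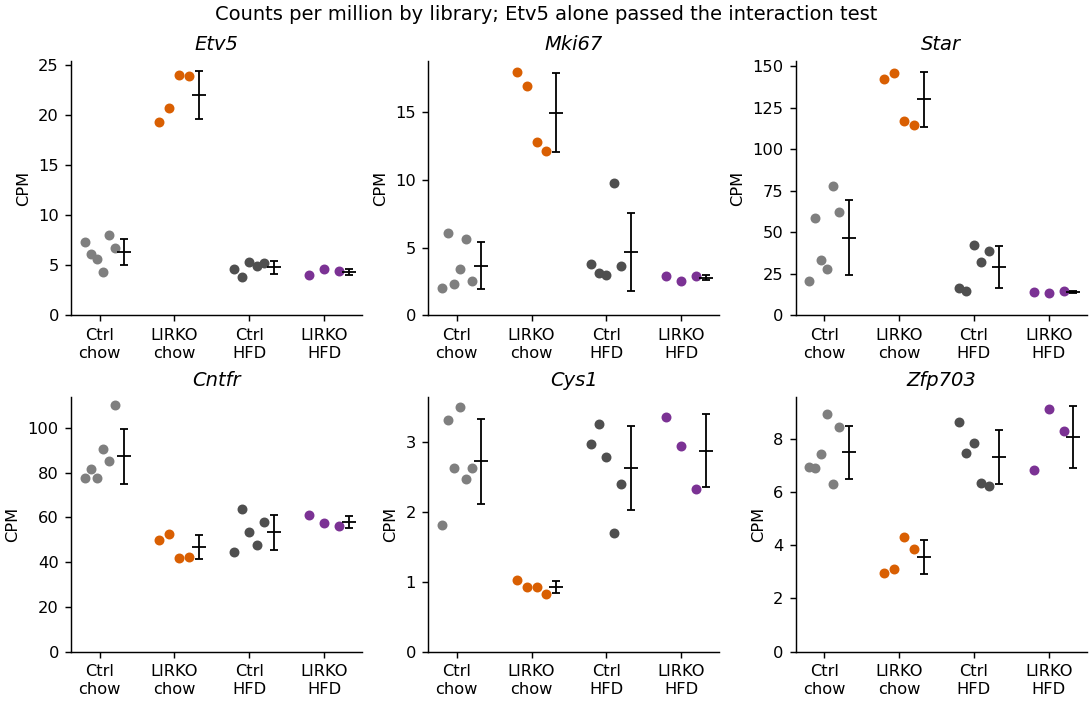
CPM in each library (points) with the mean and SD of each group (bars) for 6 genes. Etv5, Mki67 and Star are highest in LIRKO chow, and Cntfr, Cys1 and Zfp703 are low there and overlap between the HFD groups.

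The 63 genes that passed on both diets were 39 higher and 24 lower in LIRKO, and 39 of the 63 had the larger difference on HFD. Far fewer genes passed on HFD than on chow, so requiring both favours large HFD values, and that count is a description only. C1qtnf1, a secreted relative of adiponectin, was at 0.279 to 3.79 CPM in Ctrl chow (median 0.922), 27.8, 30.2, 31.6 and 30.5 in LIRKO chow, 3.08, 3.44, 1.81, 4.75 and 1.82 in Ctrl HFD, and 19.7, 19.7 and 22.1 in LIRKO HFD. The genotypes did not overlap on either diet, and the log2 differences were 4.51 and 2.79. Lpl, lipoprotein lipase, was at 282 to 492 CPM in Ctrl chow (median 378), 132, 136, 100 and 95.4 in LIRKO chow, 214, 215, 192, 113 and 189 in Ctrl HFD, and 54.3, 49.3 and 43.8 in LIRKO HFD. Its difference was −1.70 (SE 0.20) on chow and −1.91 (SE 0.24) on HFD, and the interval of the interaction was −0.82 to 0.41. Fam196a differed by −2.54 and −2.51, the neuropeptide gene Npy by −2.07 and −2.31, and Bcat1, a branched-chain aminotransferase, by 2.60 and 2.69. Of 28 alternatives, the HFD difference passed in 28 for Lpl, 27 for Fam196a, 25 for C1qtnf1, 19 for Bcat1 and 14 for Npy. Without LIRKO HFD replicate 3, 7 genes passed on both diets; with the chow pairs summed, 19 did.

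Of the 35 genes that passed on HFD only, 22 were higher and 13 lower, and 0 passed the interaction. A missed threshold on chow was likewise not an absent difference. Of all 61 genes higher on HFD, 59 (96.7%) were above 0 on chow, and of the 37 lower, 35 (94.6%) were below 0. Those counts include the genes that passed on both diets. The genes named next were mostly picked for a small interaction p and do not stand for the 35. Igf1r, the receptor for IGF-1, was at 331 to 726 CPM in Ctrl chow (median 548), 704, 688, 520 and 522 in LIRKO chow, 325, 270, 372, 264 and 252 in Ctrl HFD, and 120, 149 and 152 in LIRKO HFD. Its difference was 0.14 on chow (adjusted p = 0.73) and −1.08 on HFD (adjusted p = 0.027), with an interaction of −1.23 (SE 0.28, adjusted p = 0.31). Astn1, a neuronal adhesion protein, was at 1.24 to 3.84 CPM in every library outside LIRKO HFD and at 7.23, 6.98 and 7.52 in it (interaction 2.22, SE 0.43, adjusted p = 0.14). Cadm3, a cell adhesion molecule, was at 0.605 CPM or less outside LIRKO HFD and at 0.987, 1.74 and 1.45 in it (interaction 4.23, SE 0.77, adjusted p = 0.13). By DESeq2, 6 genes passed both on HFD and in the interaction in the same direction: Astn1, Cadm3, Tspan2os, Igf1r, Tmie and Agap2. They were taken from the HFD calls of DESeq2 itself, not from the 35 genes above.

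**Figure D4:**
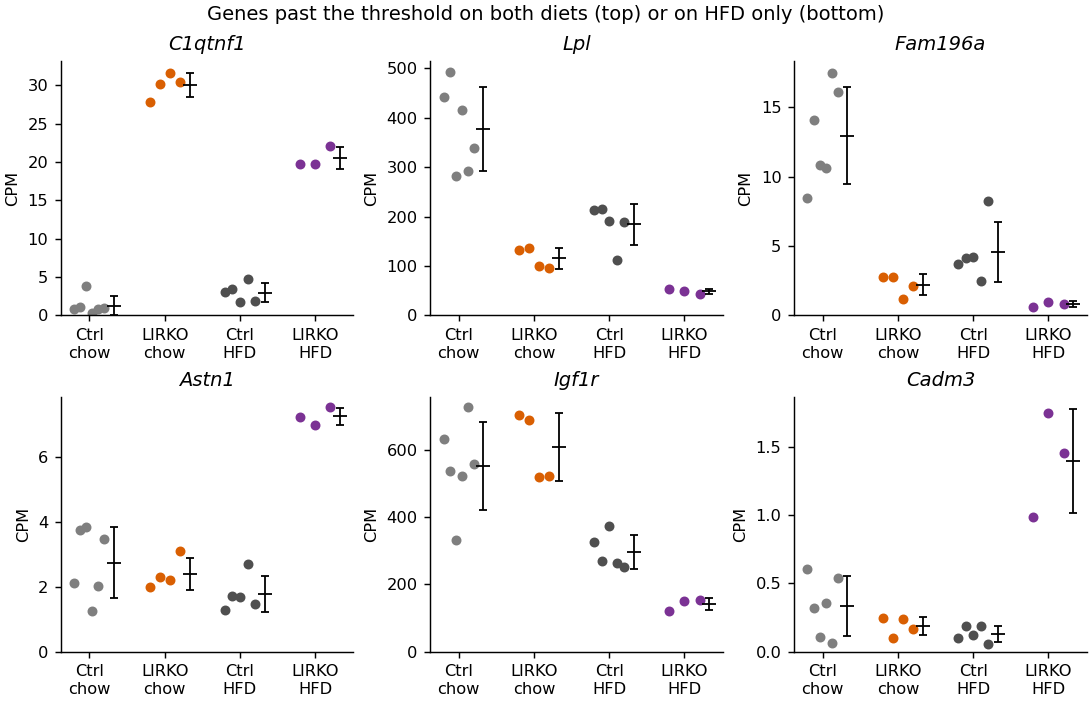
CPM in each library (points) with the mean and SD of each group (bars). C1qtnf1, Lpl and Fam196a differ between genotypes on both diets, while Astn1, Igf1r and Cadm3 differ on HFD.

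Among the other lists, 41 genes of beta cell identity and secretion had medians of −0.20 on chow and −0.18 on HFD, with 3 higher (2.95% of all genes) and 6 lower (2.2%) on chow and 1 higher on HFD (0.316%). Ins1 and Ins2, whose similar sequences can share reads, had interactions of −0.46 (adjusted p = 0.98) and −0.09 (adjusted p = 1.00). Oxidative phosphorylation genes had medians of −0.47 and −0.11, and interferon response genes 0.08 and 0.79, with 0 calls in either list on either diet. Leaving out 1 library moved the interferon chow median between −0.17 (without LIRKO chow replicate 3) and 0.49 (without Ctrl chow replicate 1), and the oxidative phosphorylation HFD median between −0.38 (without LIRKO HFD replicate 1) and 0.01 (without LIRKO HFD replicate 3). Without Ctrl HFD replicates 1 and 2, the HFD median was 0.39 for interferon response and 0.14 for oxidative phosphorylation. Hypoxia and glycolysis genes had medians of 0.70 on chow and 0.72 on HFD, which ranged from 0.61 to 1.01 and from 0.47 to 1.14 when 1 library was left out. Over all alternatives the HFD median fell as low as 0.37, and the median interaction ran from −0.31 to 0.37. Macrophage markers had medians of −0.63 and 0.16, and their summed level was 159 to 301 CPM in Ctrl chow, 120 to 240 for LIRKO chow, 205 to 443 for Ctrl HFD and 347 to 376 for LIRKO HFD. Alpha cell markers, which include Gc and Ttr, summed to 1052 to 2249, 972 to 2603, 803 to 4738 and 1004 to 4145 CPM in the same order. Endothelial markers summed to 57.3 to 302, 23.4 to 240, 231 to 476 and 345 to 460 CPM in the same order. Within LIRKO chow these sums split by the close pairs, with replicates 1 and 2 below replicates 3 and 4. The values were 23.4 and 27.9 against 240 and 207 CPM for endothelial markers. They were 972 and 993 against 2409 and 2603 for alpha cells, and 120 and 121 against 240 and 215 for macrophages. In Ctrl HFD, alpha cell markers reached 4609 and 4738 CPM in replicates 3 and 4 and at most 1505 in the others. The part of these cells in the differences was not tested.

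**Figure D5:**
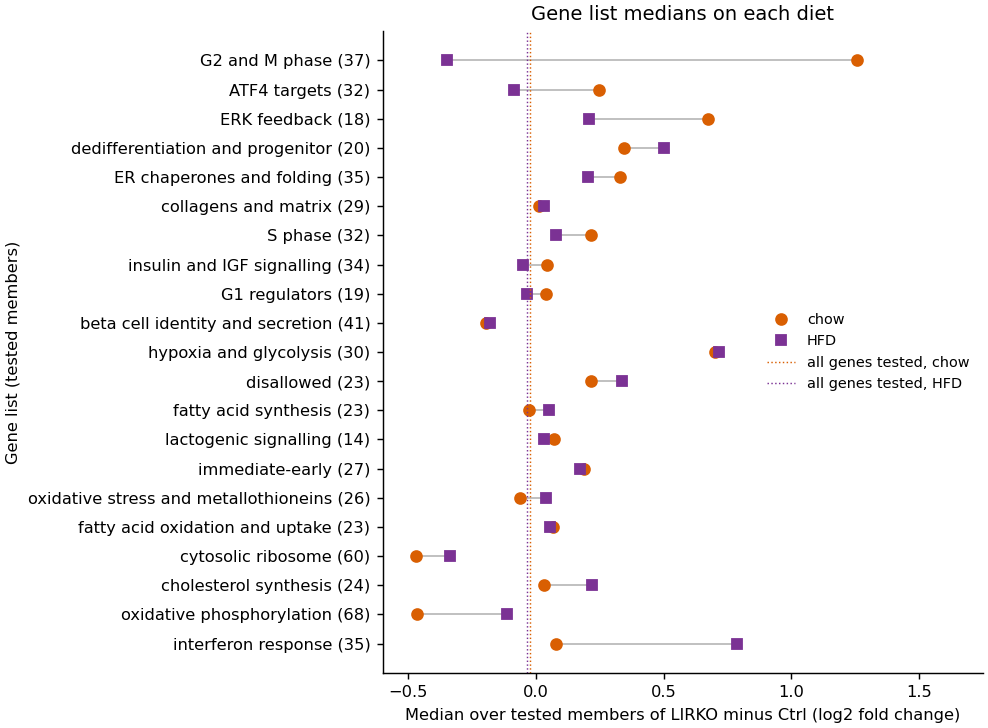
Median LIRKO minus Ctrl difference (log2 fold change) over the tested members of 21 process lists on chow (circles) and HFD (squares); dotted lines mark the medians of all genes. The G2 and M phase list moves furthest, from 1.26 to −0.35, and the interferon list goes from 0.08 to 0.79.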

How the data were processed

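RNA-seq libraries of sorted beta cells were compared. The authors deposited 1 table of raw read counts by Ensembl gene ID, with a column for each library. The submitters' processing notes list STAR, featureCounts and GRCm38. Tool versions and strandedness of counting: not given in the sources used here. Of 53090 gene IDs, 52489 were named with GENCODE M21, and the 601 others held at most 0.0176% of a library's counts. Groups came from the sample titles. Genes were tested with edgeR 4.0.16 in R 4.3.3 (filterByExpr, TMM, glmQLFit and glmQLFTest, 1 coefficient per group over all 18 libraries, two-sided, Benjamini-Hochberg within each comparison, threshold 0.05), which left 19284 genes. The biological coefficient of variation was 0.314. SE is the log2 difference divided by the root of the F statistic, and intervals are 95%. DESeq2 1.42.0 and limma 3.58.1 were alternatives, with other scalings, filters and left-out libraries. The interaction test was also run on counts simulated as independent libraries, with the outcome not reported here. Such counts hold neither the close LIRKO chow pairs nor the split of the Ctrl HFD group.

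The comparison, the gene lists and the tests were chosen with earlier results of these data known. The rule for named genes took the 15 smallest interaction p-values in each direction at a mean log2 CPM of at least 1, 12 genes called on both diets with the largest smaller difference, the 12 genes called on chow and 8 called on HFD only with the smallest interaction p, up to 3 members of each list, the 3 highest of each marker list and 25 fixed genes, 169 in all. From these, 80 were picked for the text after their values were seen, and Jade1 was added outside the rule; 1 of the 80 is counted among the alternatives but not reported here. During the work 6 of the 81 (Slc2a2, Cdkn1a, Mnx1, Uhrf1, Tspan2os and Ddit3) were taken out, mainly because their sign changed between alternatives, and then put back, so that the counts of stable results cover all 81. Stk35, Gpt2, Fam167a, Krt80, Tmie, Agap2 and Aass are named because they complete small counts.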

Additional observations from a re-analysis of the deposited data

Results flagged for a closer look

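The genotype difference of Etv5 differed between the diets by the test of that difference itself, with an interaction of −1.93 on the log2 scale. A library far from the others of its group by Dixon's criterion was found in 15 of 243 pairs of gene and group, where chance gives about 1 in 20. LIRKO HFD, with 3 libraries, was too small for the criterion and was not examined. Ctrl chow replicate 1 lay apart for Fosl2 (21.8 CPM, others 12.5 to 14). Ctrl chow replicate 3 lay apart for C1qtnf1 (3.79 CPM, others 0.279 to 1.06), Bcat1 (2.27 CPM, others 0.239 to 0.733), Gpc6 (0.566 CPM, others 0.0798 to 0.185), Kcns3 (0.669 CPM, others 0.0616 to 0.264), Cyp4x1 (1.18 CPM, others 0.432 to 0.704), Aldh1a3 (21.1 CPM, others 1.14 to 2.19). Without Ctrl chow replicate 3, the edgeR interaction test called 3 genes, all lower. They were Etv5, Aldh1a3 (−3.98, adjusted p = 0.000116) and Aass (−2.65, adjusted p = 0.015). With all libraries, the Aldh1a3 interaction was −2.41 (adjusted p = 0.83) by edgeR, and voom called it (adjusted p = 0.0348). Ctrl chow replicate 4 lay apart for Bmpr1b (1.76 CPM, others 4.04 to 4.75). Ctrl HFD replicate 1 lay apart for Hrh2 (0.0496 CPM, others 0.266 to 0.326), Etv4 (1.04 CPM, others 0.185 to 0.409). Ctrl HFD replicate 4 lay apart for Gc (165 CPM, others 118 to 130), Mki67 (9.79 CPM, others 2.96 to 3.77), Top2a (9.04 CPM, others 1.44 to 2.53), Lpl (113 CPM, others 189 to 215). LIRKO chow replicate 3 lay apart for Wdr25 (27.5 CPM, others 25.1 to 25.3).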

How the results depend on the processing

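Of 243 gene results (81 genes in 3 comparisons), 217 kept their direction under every alternative run and 117 also kept their side of the threshold; of the 81 interaction results, 70 kept their direction. Etv5 was the interaction call under both other scalings, both other filters and the robust fit.

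The counts below are in the order interaction, chow difference, HFD difference, the diet difference in Ctrl, the diet difference in LIRKO, kept, lost, gained and reversed; where fewer are given they are named. As reported they were 1, 993, 98, 1914, 392, 63, 1, 0 and 0. With DESeq2, whose test counts 19816 genes, they were 47, 1638, 311, 3965, 1089, 203, 39, 6 and 0. With voom they were 43, 3518, 924, 73, 6104, 576, 29, 17 and 7. With the LIRKO chow pairs summed, the first 7 were 0, 193, 54, 114, 7, 19 and 0. Without Ctrl HFD replicates 1 and 2 they were 8, 1765, 193, 34, 1191, 116, 6, 1 and 1. With both changes together, there were 2 interaction calls, 363 on chow, 1 for HFD in Ctrl, 59 for HFD in LIRKO, 32 kept and 2 lost. With no filter, HFD called 457 genes in Ctrl and 250 in LIRKO. At an adjusted p under 0.1, 1589 genes passed on chow, 176 on HFD, 4843 and 813 for HFD in Ctrl and LIRKO, and 116 were kept. Leaving out 1 library at a time gave 0 to 3 interaction calls, 431 to 1126 on chow, 10 to 162 on HFD, 69 to 3877 and 55 to 502 for HFD in Ctrl and LIRKO, 7 to 100 kept, 0 to 3 lost and 0 to 1 gained. The causes were not tested.

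Under voom with quality weights, the sign turned for the Napb HFD difference (0.027), Rab3b HFD difference (−0.15), Id3 HFD difference (0.23), Cck interaction (0.75), Kcns3 interaction (0.0056), Npy interaction (0.0094), Etv4 HFD difference (0.045), Birc5 HFD difference (0.65), Ins2 chow difference (0.016), Insr HFD difference (−0.10), Pyy HFD difference (0.23), Mnx1 HFD difference (−0.14), Slc2a2 interaction (−0.43), Cdkn1a interaction (0.13). Without Ctrl HFD replicates 1 and 2, the sign turned for the Pde10a HFD difference (−0.056), Id3 HFD difference (0.027), Cck interaction (0.15), Fam196a interaction (−0.12), Hmox1 HFD difference (−0.41), Ins1 HFD difference (0.22), Ins2 interaction (0.20), Ins2 chow difference (0.018), Ins2 HFD difference (0.21), Insr HFD difference (−0.16), Mnx1 HFD difference (−0.0010), Slc2a2 interaction (−0.11), Cdkn1a interaction (0.089). With those libraries left out and the pairs summed, the sign turned for the Pde10a HFD difference (−0.060), Id3 HFD difference (0.023), Cck interaction (0.12), Fam196a interaction (−0.11), Hmox1 HFD difference (−0.42), Ins1 HFD difference (0.22), Ins2 interaction (0.19), Ins2 chow difference (0.023), Ins2 HFD difference (0.21), Insr HFD difference (−0.17), Mnx1 HFD difference (−0.0051), Slc2a2 interaction (−0.12), Cdkn1a interaction (0.081). Under upper quartile scaling, the sign turned for the Ins2 chow difference (0.0092). With no filter, the sign turned for the Ins2 chow difference (0.014). With at least 1 CPM in 3 libraries, the sign turned for the Mnx1 HFD difference (−0.00074). Over fits that each left out 1 library, values ran on both sides of 0 for the Pde10a HFD difference −0.090 to 0.20, Osgin1 HFD difference −0.034 to 0.19, Rab19 HFD difference −0.087 to 0.066, Rab3b HFD difference −0.18 to 0.34, Bcat1 interaction −0.71 to 0.32, Gpc6 interaction −0.49 to 0.46, Fam196a interaction −0.18 to 0.36, Npy interaction −0.53 to 0.13, Hmox1 HFD difference −0.18 to 0.71, Ins2 interaction −0.38 to 0.098, Ins2 chow difference −0.10 to 0.066, Ins2 HFD difference −0.40 to 0.077, Insr interaction −0.15 to 0.062, Insr HFD difference −0.0074 to 0.21, Ucn3 interaction −0.20 to 0.72, Mnx1 HFD difference −0.14 to 0.088, Slc2a2 interaction −0.28 to 0.37, Cdkn1a interaction −0.22 to 0.00021. No paired analysis was possible because the labels give no replicate numbers. The list of erythrocyte markers had no value with at least 1 CPM in 3 libraries. Depth limits genes under about 1 CPM, where a library holds few reads.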
